A study of Rattus norvegicus with 32 samples.

Results

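The interferon-induced genes examined here are 38 rat genes chosen by symbol as well-known targets of interferon signaling, and 36 of them had a row among the 18281 RefSeq transcripts of the deposited table. They were followed in RNA sequencing of rat tibialis anterior (TA) muscle after volumetric muscle loss (VML), an injury in which a biopsy punch removes a piece of the middle of the muscle. The rats carry the strain label HSD and are Sprague Dawley in the methods. At 3 or 14 days post injury (DPI) the defect had been left unrepaired (VML), filled with autologous minced muscle (MM), filled with a scaffold of decellularized skeletal muscle (DSM) taken from the TA of cadaveric rats, or filled with scaffold and minced muscle together (DSM+MM). Each injured group is written with its day, as in MM3 or DSM14. Uninjured muscle came from the contralateral limb, so an uninjured library can share its rat with an injured library, and its rat had also undergone surgery. All rats received buprenorphine after surgery and had access to Rimadyl (carprofen, an anti-inflammatory drug). Force was measured under nerve stimulation before the tissue was taken. There were 3 libraries in each injured group and 4 of uninjured muscle at each day, 32 libraries in 10 groups. The methods describe separate animals within a group.

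Interferons are secreted proteins that cells release on sensing nucleic acids or on immune activation. Type I interferons act through a receptor and the JAK kinases to assemble a complex of STAT proteins with IRF9, which binds the interferon-stimulated response element of target promoters. Interferon gamma, made mainly by lymphocytes, acts through a STAT dimer that binds the gamma-activated site. The induced genes encode antiviral effectors, sensors of nucleic acids, enzymes of the ISG15 pathway, guanylate-binding proteins and parts of antigen presentation. Macrophages, which enter injured muscle in large numbers, express many of them.

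Every member value is the log2 fold change between injured tissue and uninjured muscle collected on that day, with a standard error (SE) derived from each fold change and its F score. The table gives averages and comparisons, and single libraries were not analysed here. A gene was called higher or lower at a Benjamini-Hochberg adjusted p under 0.05, as deposited from edgeR. Members were counted where the average over all libraries was at least 1 CPM (counts scaled by library size), a log2 CPM of 0, which 10851 transcripts met. The samples carried the markers of skeletal muscle, with the alpha-actin gene Acta1 at an average log2 CPM of 16.02 and the muscle creatine kinase gene Ckm at 14.75. The tissue was bulk muscle from the border of the defect, so more cells of a type and more RNA per cell cannot be told apart in any value below.

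Of the 38 members, 33 were counted. Xaf1 and Herc6 were not analysed here. Mx1, Ifit1 and Tap2 had rows at average log2 CPM of -2.46, -0.66 and -2.56 and were left out by the filter. Mx1 and Tap2 lay near the lowest value of the table of -2.66, where differences were not detectable at this depth. Ifit1 was called in no group. Its smallest adjusted p was 0.0852, in DSM+MM3 at a log2 fold change of 2.15, and its other values ran from -0.64 for VML3 to 2.32 for MM14. Mx1 was spread over 6 rows. Among the 564 genes with several rows, 84.4% of the rows lay below a log2 CPM of 0, against 36.5% of the rows of the 15841 genes with a single row, so a low row of such a gene need not be a low gene. The 33 counted members averaged between 3.94 and 145 CPM. Ifitm1, Ifitm2 and Ifitm3 belong to 1 family of similar genes, and Oas1a to another, so their reads may have been shared or lost and their separate values are uncertain.

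Many promoters of the members carry the letters that interferon-activated factors bind, and 8 that hold such a match are shown. Windows without a match are not shown. RefSeq windows of the GRCr8 assembly, from 250 bases before to 50 bases after the start of each gene, were found for 30 of the 38 members. Each line gives 170 bases read 5′ to 3′ on the strand of the gene. Capitals mark each match of GAAANNGAA, the core of the interferon-stimulated response element, in either orientation.
Ifit3 (chr1:241527156-241527325, plus strand): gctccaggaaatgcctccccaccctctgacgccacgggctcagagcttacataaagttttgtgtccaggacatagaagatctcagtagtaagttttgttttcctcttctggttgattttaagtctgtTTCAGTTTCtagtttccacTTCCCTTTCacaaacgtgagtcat
Oas1a (chr12:41330296-41330465, plus strand): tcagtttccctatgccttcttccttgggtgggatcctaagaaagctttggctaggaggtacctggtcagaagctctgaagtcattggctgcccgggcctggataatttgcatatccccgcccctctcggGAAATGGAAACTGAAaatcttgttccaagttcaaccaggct
Gbp2 (chr2:234005557-234005726, plus strand): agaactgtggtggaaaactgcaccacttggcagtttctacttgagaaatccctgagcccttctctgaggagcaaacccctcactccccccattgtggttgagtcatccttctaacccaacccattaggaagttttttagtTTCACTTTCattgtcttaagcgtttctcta
Gbp5 (chr2:233910829-233910998, plus strand): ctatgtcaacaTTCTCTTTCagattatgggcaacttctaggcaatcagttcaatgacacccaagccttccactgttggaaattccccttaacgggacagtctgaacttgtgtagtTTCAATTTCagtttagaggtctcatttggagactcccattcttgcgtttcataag
Tap1 (chr20:4668544-4668713, minus strand): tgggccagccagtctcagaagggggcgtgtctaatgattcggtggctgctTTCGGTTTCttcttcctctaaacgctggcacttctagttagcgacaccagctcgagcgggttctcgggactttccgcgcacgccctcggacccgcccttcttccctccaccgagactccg
Parp14 (chr11:78407964-78408133, plus strand): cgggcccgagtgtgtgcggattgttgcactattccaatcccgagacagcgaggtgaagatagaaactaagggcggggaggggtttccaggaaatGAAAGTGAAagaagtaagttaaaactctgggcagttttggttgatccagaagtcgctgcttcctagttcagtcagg
Sp110 (chr9:93670660-93670829, minus strand): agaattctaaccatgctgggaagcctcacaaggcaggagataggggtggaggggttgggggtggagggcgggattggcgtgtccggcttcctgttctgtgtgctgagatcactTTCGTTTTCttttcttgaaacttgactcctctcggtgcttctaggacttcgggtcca
Cd274 (chr1:236530062-236530231, plus strand): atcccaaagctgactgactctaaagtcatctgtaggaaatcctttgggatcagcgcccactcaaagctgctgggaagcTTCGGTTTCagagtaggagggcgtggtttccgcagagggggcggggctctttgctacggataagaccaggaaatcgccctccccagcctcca

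Ifit3 carries 2 separate matches, which begin 43 and 24 bases before the start, and Oas1a carries 2 overlapping matches that begin 41 and 35 bases before it. The match in Gbp2 lies 30 bases before the start, that in Sp110 57 bases and that in Parp14 76 bases before it. Searched on both strands, GAAANNGAA was present in 21 of the 30 member windows (70.0%) and in 9.71% of all 33469 windows of the same length. The letters TTCNNNGAA, the gamma-activated site, were present in 7 of the 30 (23.3%) and in 8.87% of all windows. TTCNNNGAA is its own reverse complement and can share the letters GAA with the other motif. Windows of 4 members held both motifs and those of 6 held neither. Irf8 held 2 matches of TTCNNNGAA, 180 and 161 bases before the start, Irf9 held 1 at 99 bases and Irf1 held 1 at 142 bases, and none of these held GAAANNGAA. Cd274, which encodes the checkpoint ligand PD-L1, was called in no group although its window holds the same letters. Among counted members, the median log2 fold change in MM3 was 1.92 for the 19 with a GAAANNGAA match and 1.64 for the 7 without, and in DSM14 it was 1.49 and 1.44. A match is a description of these letters and not a measured binding site.

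More interferon-induced genes than not were called higher in the 3 repaired groups at 3 DPI and in DSM14, and fewer in VML3 and DSM+MM14. Of the 33 counted members, 9 were higher in VML3 (background over all counted transcripts 21.5%), 27 in MM3 (background 29.9%), 18 in DSM3 (background 27.3%) and 25 in DSM+MM3 (background 25.0%). At 14 DPI, 0 members were called in VML14 (background 0.829%) and 0 in MM14 (background 0.0184%), whereas 18 were higher in DSM14 (background 15.1%) and 13 in DSM+MM14 (background 22.2%). The member count in VML3, 27.3% of 33, stood close to its background. In MM3 and DSM+MM3 the share of members called was 81.8% and 75.8%. No member was called lower in any group, where the background of lower calls was 4.16% for VML3, 26.5% for MM3, 15.5% for DSM3, 9.59% for DSM+MM3, 0.147% for VML14, 0.0% for MM14, 1.21% for DSM14 and 2.99% for DSM+MM14.

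**Figure D1:**
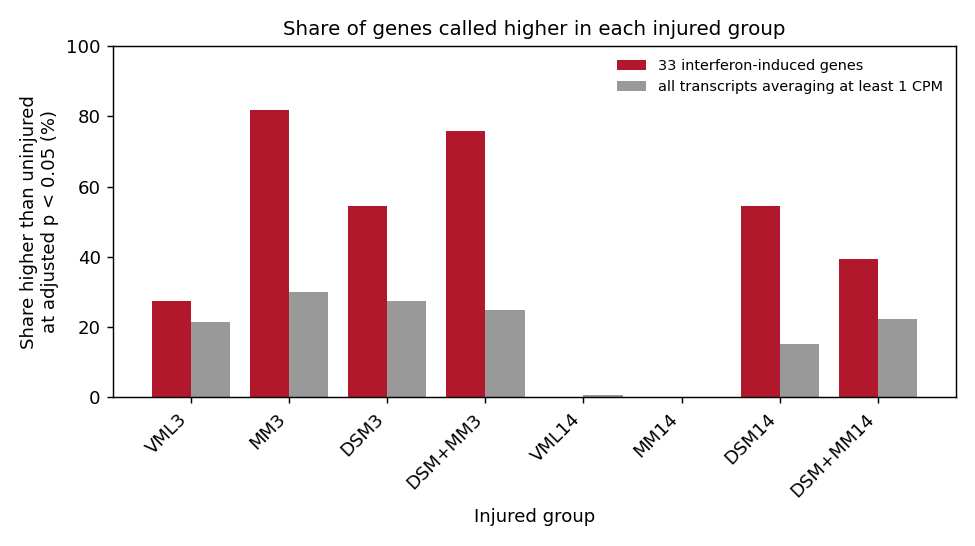
Share of genes called higher than uninjured muscle at an adjusted p under 0.05 (vertical axis, percent) in each injured group (horizontal axis), for the 33 counted interferon-induced genes (red bars) and for all 10851 counted transcripts (grey bars). The red bar reaches 81.8% in MM3, where the grey bar is at 29.9%, and both bars are near 0 in VML14 and MM14.

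The median member log2 fold change was 1.35 for VML3, 2.34 for MM3, 2.01 for DSM3 and 2.08 for DSM+MM3. It was 0.63 for VML14, 0.57 for MM14, 1.96 for DSM14 and 1.74 for DSM+MM14. The median of all counted transcripts lay between -0.03 and 0.13 in the 8 groups. The counts of 0 in VML14 and MM14 depend on the adjustment, since few transcripts of any kind were called in those groups. At an unadjusted p under 0.05, 6 members were higher in VML14 (background 16.6%) and 3 in MM14 (background 11.8%). By the same measure 16 were higher in VML3 (background 29.3%), 28 in MM3 (background 33.5%), 25 in DSM3 (background 32.2%), 28 in DSM+MM3 (background 30.5%), 25 in DSM14 (background 25.1%) and 23 in DSM+MM14 (background 29.7%). Cd274 alone was lower at that level, in VML3 (background 19.7%), with a log2 fold change of -0.66.

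**Figure D2:**
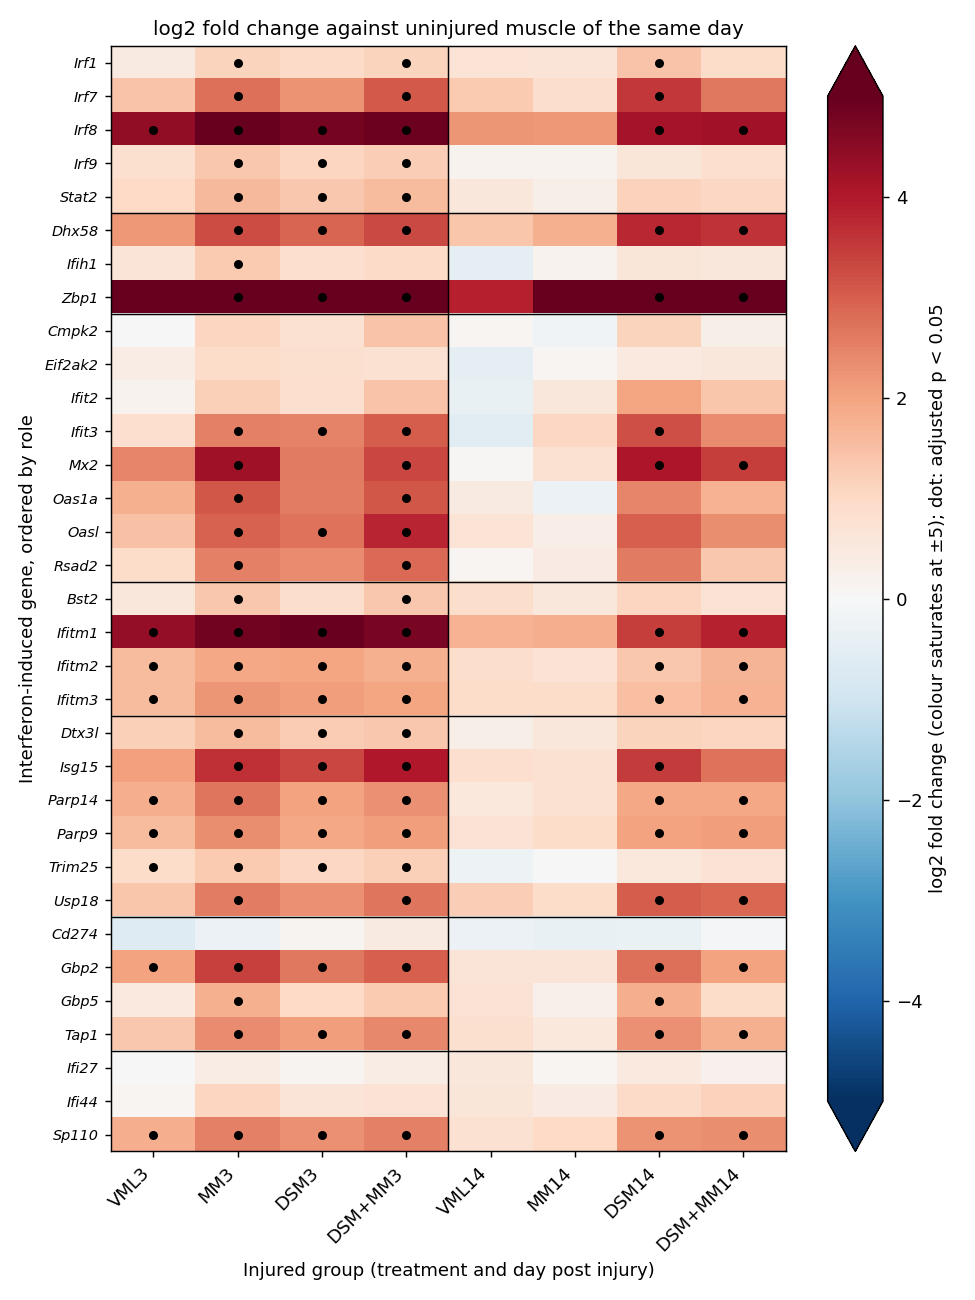
Log2 fold change of the 33 counted interferon-induced genes (rows, ordered by role, with lines between roles) in each injured group against uninjured muscle of its day (columns). Colour runs from blue (lower) to red (higher) and saturates at ±5, and a dot marks an adjusted p under 0.05. Dots fill most of the MM3 and DSM+MM3 columns and are missing from the VML14 and MM14 columns.

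Among the 5 transcription factors of the pathway, Irf8 had the highest log2 fold change in each of the 8 groups. Irf8, a factor of the IRF family that also directs the development of myeloid cells, had log2 fold changes of 4.44 for VML3, 5.15 for MM3, 4.78 for DSM3 and 4.89 for DSM+MM3. At 14 DPI it stood at 2.20 for VML14, 2.16 for MM14, 4.17 for DSM14 and 4.18 for DSM+MM14, with an SE of 0.780 to 0.836 across the groups. It was called in all groups except VML14 and MM14 (adjusted p 0.000102 for MM3 and 0.000858 for DSM+MM14). Irf7, the factor that amplifies type I interferon production, had log2 fold changes of 1.41 for VML3, 2.74 for MM3, 2.24 for DSM3 and 3.05 for DSM+MM3. Its values at 14 DPI were 1.30 for VML14, 0.87 for MM14, 3.52 for DSM14 and 2.62 for DSM+MM14. With an SE near 1, Irf7 was called in MM3 (adjusted p 0.0344), DSM+MM3 (0.0319) and DSM14 (0.0323).

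Stat2 and Irf9, which form the complex that binds the response element, rose by less and with less error. Stat2 had log2 fold changes of 1.00 for VML3, 1.64 for MM3, 1.34 for DSM3 and 1.58 for DSM+MM3, and all but VML3 were called. At 14 DPI its values of 0.56 for VML14, 0.28 for MM14, 1.14 for DSM14 and 1.05 for DSM+MM14 were not called (SE 0.383 to 0.387). Irf9 followed with 0.79 for VML3, 1.34 for MM3, 1.08 for DSM3 and 1.23 for DSM+MM3, and its values of 0.18 to 0.84 at 14 DPI were not called. Irf1, an early target of interferon gamma, was called in MM3 at 1.13, in DSM+MM3 at 1.12 and in DSM14 at 1.44 (adjusted p 0.0214). Its other values ran from 0.45 for VML3 to 0.95 for DSM3.

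Sensors of nucleic acids were uneven. Zbp1, a sensor of Z-form nucleic acids that can start cell death, was called in MM3, DSM3, DSM+MM3, DSM14 and DSM+MM14 (adjusted p 0.00376, 0.00941, 0.00551, 0.0185 and 0.0338). Its uninjured level was fitted near 0, so its fitted log2 fold changes, from 3.87 for VML14 to 9.38 for DSM14, do not measure the size of the change (SE 2.00 to 4.28). Dhx58, which encodes the RIG-I-like helicase LGP2, had log2 fold changes of 2.15 for VML3, 3.26 for MM3, 2.92 for DSM3 and 3.29 for DSM+MM3. It had 1.39 for VML14, 1.78 for MM14, 3.77 for DSM14 and 3.60 for DSM+MM14, and was called in the 5 groups in which Zbp1 was called. Ifih1, which encodes the double-stranded RNA sensor MDA5, was called only in MM3, at 1.29 (adjusted p 0.0193), and was -0.49 for VML14.

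The antiviral effectors block steps of viral replication. Of the 8 counted, MM3 and DSM+MM3 had 5 calls each, DSM3 had 2 and VML3 had 0, and at 14 DPI DSM14 had 2 calls and DSM+MM14 had 1. Against the background shares of higher calls, 2 of 8 in DSM3 (27.3%) and 1 of 8 in DSM+MM14 (22.2%) were not above the share of all transcripts. Mx2, a dynamin-like GTPase, had log2 fold changes of 2.45 for VML3, 4.23 for MM3, 2.61 for DSM3 and 3.34 for DSM+MM3. At 14 DPI it was at 0.07 for VML14, 0.78 for MM14, 4.04 for DSM14 and 3.47 for DSM+MM14, with an SE of 1.14 to 1.22. The called values of Mx2 were those of MM3, DSM+MM3, DSM14 and DSM+MM14 (adjusted p 0.00776, 0.0407, 0.0316 and 0.0455).

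Ifit3, a protein of the complex that recognizes foreign RNA ends, was likewise high in DSM14 and near 0 or below in VML14. Its log2 fold changes were 0.83 for VML3, 2.51 for MM3, 2.47 for DSM3 and 3.02 for DSM+MM3, and -0.51 for VML14, 1.03 for MM14, 3.24 for DSM14 and 2.36 for DSM+MM14 (SE 0.907 to 1.06). Ifit3 was called in the 3 repaired groups at 3 DPI and in DSM14 (adjusted p 0.0316). Oasl, a relative of the oligoadenylate synthetases, reached 3.80 for DSM+MM3 (adjusted p 0.00708), beside 2.96 for MM3, 2.73 for DSM3 and 1.47 for VML3. Its value of 2.98 for DSM14 missed the threshold (adjusted p 0.0592). Oas1a, which makes the messenger that activates RNase L, and Rsad2, which encodes viperin, were called in MM3 and DSM+MM3 alone, Oas1a at 3.11 in each and Rsad2 at 2.53 and 2.85. In DSM14 Oas1a was at 2.45 (adjusted p 0.162) and Rsad2 at 2.58 (adjusted p 0.108), with SEs of 1.07 and 0.999. Ifit2, the nucleotide kinase gene Cmpk2 and Eif2ak2, which encodes the kinase PKR, were called in no group. Their highest values were 1.96 for Ifit2 in DSM14, 1.42 for Cmpk2 in DSM+MM3 and 0.93 for Eif2ak2 in MM3.

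Membrane effectors restrict viruses at cell membranes, and the 3 Ifitm genes among them were called in all 4 groups at 3 DPI and in both scaffold groups at 14 DPI. Ifitm1 had log2 fold changes of 4.39 for VML3, 4.81 for MM3, 4.93 for DSM3 and 4.75 for DSM+MM3. It was at 1.74 for VML14, 1.81 for MM14, 3.44 for DSM14 and 3.84 for DSM+MM14 (SE 0.740 to 0.760). Ifitm2 and Ifitm3 moved less, from 1.57 to 2.22 at 3 DPI, and from 1.36 to 1.74 in the scaffold groups at 14 DPI. Bst2, which encodes the virus-tethering protein tetherin, was called in MM3 at 1.36 and in DSM+MM3 at 1.34, and its 14 DPI values of 0.56 to 1.08 were not called.

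Members of the ISG15, ubiquitin and ADP-ribose group modify other proteins. Isg15, a ubiquitin-like protein, had log2 fold changes of 2.04 for VML3, 3.65 for MM3, 3.34 for DSM3 and 4.02 for DSM+MM3. At 14 DPI Isg15 stood at 0.83 for VML14, 0.76 for MM14, 3.49 for DSM14 and 2.70 for DSM+MM14, and its DSM14 call lay at the threshold (adjusted p 0.0497, SE 1.14). Usp18, the protease that removes ISG15 and dampens the receptor, was called in MM3 at 2.57, DSM+MM3 at 2.68, DSM14 at 3.04 and DSM+MM14 at 2.88. Parp9 and Parp14, ADP-ribosyltransferase family members, were called in 6 of the 8 groups. Parp14 had 1.82 for VML3, 2.68 for MM3, 2.01 for DSM3, 2.28 for DSM+MM3, 0.52 for VML14, 0.76 for MM14, 1.94 for DSM14 and 1.95 for DSM+MM14 (SE 0.553 to 0.568). Parp9 ranged from 1.60 to 2.34 at 3 DPI, was at 0.73 for VML14 and 0.91 for MM14, and reached 2.01 for DSM14 and 2.10 for DSM+MM14. Dtx3l, the ubiquitin ligase partner of Parp9, was called in the repaired groups at 3 DPI, at 1.26 to 1.60, and not at 14 DPI. Trim25, a ubiquitin ligase that activates RIG-I, was called in all 4 groups at 3 DPI, at 0.91 to 1.30, and its 14 DPI values ran from -0.24 for VML14 to 0.74 for DSM+MM14.

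Guanylate-binding proteins attack intracellular pathogens, and Gbp2 was called in 6 of the 8 groups. Gbp2 had log2 fold changes of 2.03 for VML3, 3.43 for MM3, 2.64 for DSM3 and 2.99 for DSM+MM3, then 0.63 for VML14, 0.65 for MM14, 2.75 for DSM14 and 2.00 for DSM+MM14 (SE 0.689 to 0.711). Gbp5, which promotes inflammasome assembly, was called in MM3 at 1.77 (adjusted p 0.00839) and in DSM14 at 1.83 (adjusted p 0.0225), and stood at 0.47 for VML3. Tap1, a subunit of the peptide transporter that feeds MHC class I, was at 2.38 for MM3, 2.08 for DSM3, 2.39 for DSM+MM3, 2.28 for DSM14 and 1.76 for DSM+MM14, all called. Its values without a call were 1.35 for VML3, 0.79 for VML14 and 0.52 for MM14. Cd274 stayed between -0.66 and 0.45 in all 8 groups (SE 0.308 to 0.324).

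Sp110, a nuclear body protein, was called in the same 6 groups as Irf8. Its log2 fold changes were 1.83 for VML3, 2.52 for MM3, 2.29 for DSM3, 2.51 for DSM+MM3, 0.76 for VML14, 1.00 for MM14, 2.24 for DSM14 and 2.33 for DSM+MM14 (SE 0.510 to 0.526). Ifi27, a small mitochondrial protein gene, lay between 0.01 for VML3 and 0.56 for VML14 with the smallest SE of the members (0.251 to 0.252) and was called nowhere. Ifi44 was also called nowhere, with its highest value of 1.15 for DSM+MM14. In all, 27 of the 33 counted members were called in at least 1 group, and the 6 called in none were Ifit2, Cmpk2, Eif2ak2, Cd274, Ifi27 and Ifi44. The share of all transcripts called in at least 1 group was not counted. In MM3 alone 29.9% of them were called higher and 26.5% lower.

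Whether the scaffold went with higher levels at 14 DPI was tested directly, as the mean of DSM14 and DSM+MM14 minus the mean of VML14 and MM14. No member passed at an adjusted p under 0.05, where 1.59% of 10845 transcripts did. All 33 member differences were above 0, against 51.9% of all transcripts, and their median was 1.31 against 0.02. The same libraries enter all 33 differences, so their common direction is not 33 separate observations. At an unadjusted p under 0.05, 25 of the 33 were higher (background 17.8%). Mx2 came nearest to the threshold, at a difference of 3.33 ± 0.907 (SE) with a 95% interval of 1.47 to 5.20 (adjusted p 0.0536). Sp110 followed at 1.41 ± 0.395 (adjusted p 0.0567) and Ifit3 at 2.54 ± 0.750 (adjusted p 0.0608). Gbp2 differed by 1.74 and Ifitm1 by 1.86 (adjusted p 0.0662 each), Irf8 by 1.99 (adjusted p 0.0726) and Trim25 by 0.75 (adjusted p 0.0709). The intervals of Ifi27, -0.37 to 0.41, and of Cd274, -0.37 to 0.63, both lay within 0.63 of 0. This result depends on how much of the error belongs to the shared uninjured libraries. The same share was taken out for every gene. For Zbp1, whose uninjured level was fitted near 0, that share may not hold, so its interval of -1.02 to 9.45 is uncertain. With 3 uninjured libraries a day, as in the methods, in place of the 4 of the labels, 8 members passed, namely Mx2, Sp110, Ifit3, Gbp2, Ifitm1, Trim25, Irf8 and Parp9 (adjusted p 0.0278 to 0.0417, background of higher calls under that setting 5.15%).

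**Figure D3:**
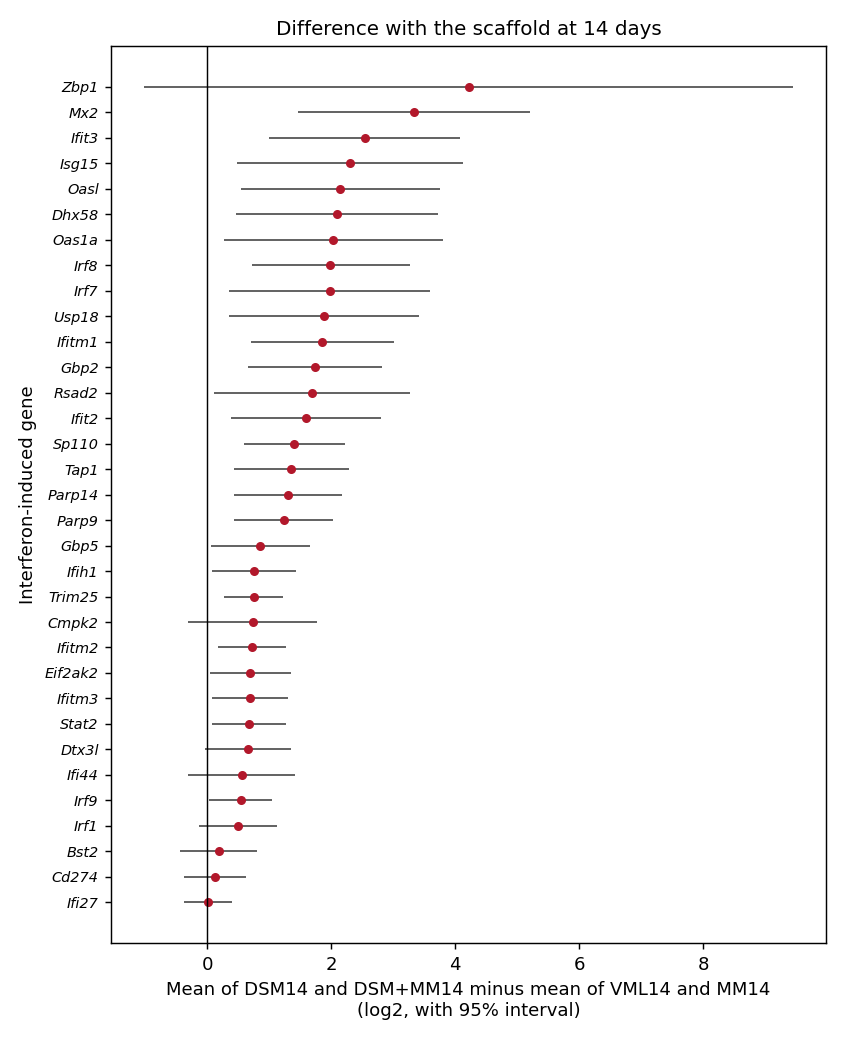
Difference between groups with and without the scaffold at 14 DPI (horizontal axis, log2, mean of DSM14 and DSM+MM14 minus mean of VML14 and MM14) for each counted interferon-induced gene (vertical axis, ordered by difference). Points are differences and lines are 95% intervals. All 33 points lie above 0, 25 of the intervals do not reach 0, and Zbp1 has the widest interval.

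Single pairs of groups at 14 DPI were less precise, and no member passed the adjusted threshold in any of them. DSM14 minus VML14 had a member median of 1.42, with 16 of 33 higher at an unadjusted p under 0.05 (background 5.94%, and 0.0% at an adjusted p). Ifit3 differed by 3.75 ± 1.09 and Mx2 by 3.98 ± 1.30 in that pair. DSM14 minus MM14 had a median of 1.29 with 12 higher (background 3.49%, and 0.0% at an adjusted p). For DSM+MM14 minus VML14 the median was 1.23 with 12 higher (background 17.5%, and 0.0738% at an adjusted p), and Trim25 had the smallest adjusted p, 0.0722. DSM+MM14 minus MM14 had a median of 0.99 with 7 higher (background 12.7%, and 0.0% at an adjusted p). Neither DSM+MM14 minus DSM14, with a median of -0.17, nor MM14 minus VML14, with a median of 0.01, had a member past an unadjusted p of 0.05. Graft at 14 DPI, the mean of MM14 and DSM+MM14 minus that of VML14 and DSM14, had a median of 0.07, and its interaction with the scaffold a median of -0.25. Those 4 comparisons called 0.0% of all transcripts.

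At 3 DPI the injured groups could not be separated gene by gene, although more members had been called in MM3 than in VML3. No member and 0.0% of all transcripts passed at an adjusted p in any of the 9 comparisons within that day. All 33 member differences of MM3 minus VML3 lay above 0, with a median of 0.85 against -0.01 over all transcripts. Gbp5 alone passed an unadjusted p of 0.05 there, at 1.31 ± 0.547 (background 0.313%). DSM+MM3 minus VML3 had a median of 0.79, and Oasl at 2.34, Ifit3 at 2.19 and Cd274 at 1.11 passed at that level (background 1.18%). DSM3 minus VML3 had a median of 0.53, and Cd274 passed at 0.78 (background 0.774%). Cd274 also passed in DSM+MM3 minus MM3, at 0.73 (background 2.65%). Graft at 3 DPI had a median of 0.56, all 33 members above 0 against 44.1% of all transcripts, and Gbp5 at 0.82 and Bst2 at 0.63 past an unadjusted p of 0.05 (background 0.12%). The scaffold difference at 3 DPI had a median of 0.16, against 1.31 at 14 DPI, with Cd274 past that level at 0.76 (background 1.63%), and the change of the scaffold difference between days was not tested. DSM3 minus MM3 had a median of -0.31, DSM+MM3 minus DSM3 had one of 0.32, and the interaction of scaffold and graft had a median of -0.58, with no member past an unadjusted p of 0.05 in these 3. All 33 interaction values lay below 0, against 51.3% of all transcripts, and the same libraries enter all 33 of them. This also holds for the 33 values of MM3 minus VML3 and the 33 of the graft difference.

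The course from 3 to 14 DPI was compared within each treatment. MM14 minus MM3 was negative for all 33 members, against 48.8% of all transcripts, with a median of -1.47. The same libraries enter all 33 of these values. At an unadjusted p under 0.05, 13 were lower (background 14.4%), and none passed at an adjusted p, where 0.0645% of transcripts did. Trim25, at -1.30 ± 0.435, had the smallest adjusted p of 0.108, and Gbp2 was at -2.79 ± 0.994 and Ifitm1 at -3.00 ± 1.06. VML14 minus VML3 had a median of -0.78, with Trim25 at -1.15 and Ifitm1 at -2.65 past an unadjusted p of 0.05 (background 10.1%, and 0.00922% at an adjusted p). For the scaffold groups the medians were 0.15 for DSM14 minus DSM3 and -0.40 for DSM+MM14 minus DSM+MM3, with no member past an unadjusted p of 0.05 (0.0% of transcripts at an adjusted p in each). Intervals were wide, as for Mx2 in DSM14 minus DSM3, at 1.44 with an interval of -1.99 to 4.87, so these 2 medians do not show that levels held.

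Markers of several cell types were counted beside the interferon-induced genes. The background of higher calls over all counted transcripts was 21.5% for VML3, 29.9% for MM3, 27.3% for DSM3 and 25.0% for DSM+MM3. At 14 DPI it was 0.829% for VML14, 0.0184% for MM14, 15.1% for DSM14 and 22.2% for DSM+MM14. All 8 macrophage markers were higher in each group at 3 DPI, with medians of 4.94 for VML3, 5.34 for MM3, 5.36 for DSM3 and 5.25 for DSM+MM3. At 14 DPI, 0 were called in VML14 and MM14 (medians 2.00 and 2.18), 7 in DSM14 and 8 in DSM+MM14 (medians 4.45 and 4.77). In the scaffold difference at 14 DPI 5 of the 8 passed at an adjusted p (background 1.59%), with a median of 2.39. Of 8 T cell markers, 4 were counted, namely Cd2, Cd4, Cd8a and Cd8b. These 4 were called in each group at 3 DPI, in 0 cases in VML14 and MM14, and in 2 and 3 cases in DSM14 and DSM+MM14. Cd3d, Cd3e, Cd3g and Cd5 averaged a log2 CPM below 0 and were not counted. They were less uniform at 3 DPI, with all called in DSM3 and none in VML3 (adjusted p 0.0595 to 0.683). Cd3d was called at 3 DPI in DSM3 alone. The 3 counted general leukocyte markers of 4 were called in all 4 groups at 3 DPI and in DSM14 and DSM+MM14. Fibroblast markers were called 4 of 4 in those groups as well and 0 of 4 in VML14 and MM14. Their medians were still 2.45 for VML14 and 2.32 for MM14, beside 3.34 for DSM14 and 4.14 for DSM+MM14. In VML14 Col1a1 at 3.72 and Lum at 3.28 narrowly missed the threshold (adjusted p 0.0505 and 0.0504). Neutrophil markers did not follow that order of groups, with 4 of 4 counted markers called in DSM3, 1 each in VML3, MM3, DSM+MM3 and DSM+MM14, and 0 in the other groups. In the groups with 1 call, that share was near the background. Of the 4 counted dendritic cell markers, 2 were higher in MM3 and DSM3 and 0 in VML14 and MM14. Each other group had 1 higher call, a share not far from the background. Cd1d1 was lower in MM3, at -1.39 (adjusted p 0.0386, background of lower calls 26.5%). The 4 endothelial markers had medians of 0.02 to 0.41. Among them Tie1 was called higher (0.49, adjusted p 0.0426) and Kdr lower (-0.75, adjusted p 0.0241) in MM3. Pecam1 was called higher in DSM+MM14 (0.54, adjusted p 0.0269). Muscle fibre markers were lower in MM3 (6 of 6 counted, background of lower calls 26.5%) and DSM3 (3 of 6, background 15.5%) and called in no other group. No marker of NK cells, B cells or plasmacytoid dendritic cells reached a log2 CPM of 0. The scaffold difference at 14 DPI had a background of 1.59% at an adjusted p. There, 3 of 3 counted general leukocyte markers, 1 of 4 counted T cell markers and 0 of 4 fibroblast markers passed. For neutrophil, dendritic cell, endothelial and muscle fibre markers the count was 0. The part of leukocyte content in the member values was not tested.

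**Figure D4:**
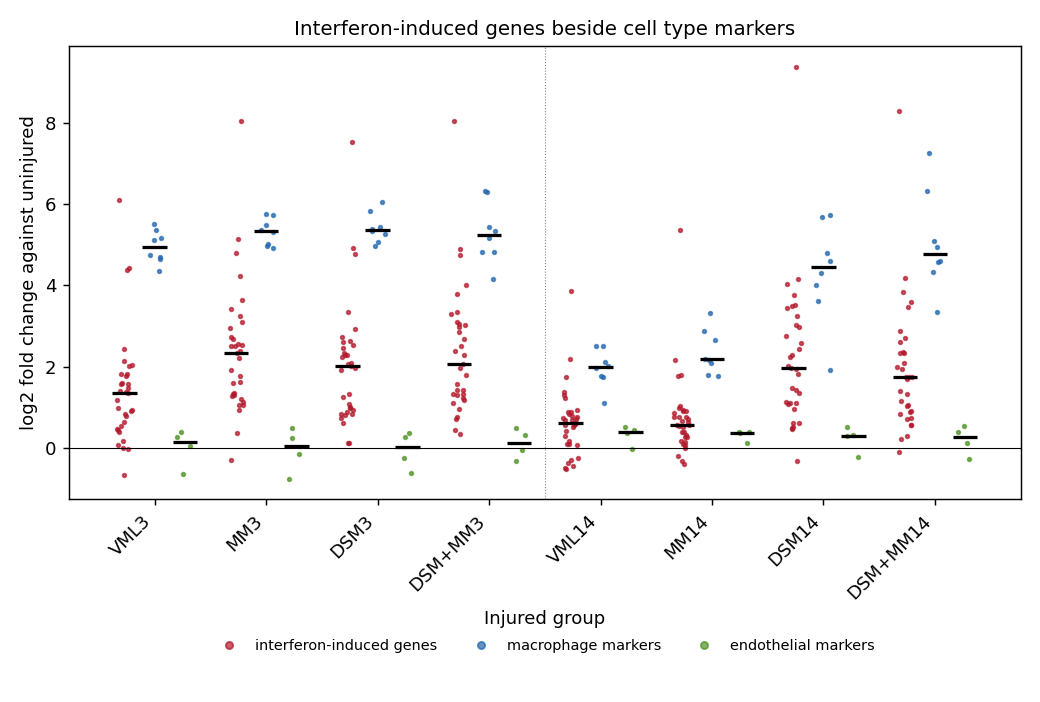
Log2 fold change against uninjured muscle (vertical axis) in each injured group (horizontal axis) for the 33 counted interferon-induced genes (red), 8 macrophage markers (blue) and 4 endothelial markers (green), with 1 point per gene and a black bar at each median. The macrophage medians lie between 4.94 and 5.36 at 3 DPI and at 2.00, 2.18, 4.45 and 4.77 at 14 DPI, the member medians are lower in every group, and the endothelial medians stay between 0.02 and 0.41.

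The pathway around the members was followed through lists of its other genes. Among the interferon genes themselves, Ifna2, Ifna4, Ifnb1 and Ifnk averaged log2 CPM of -2.64 or less and Ifng -2.38, near the lowest value of the table, so differences in interferon transcripts were not detectable at this depth (smallest adjusted p 0.0905, for Ifng in MM3). The background of higher calls at 3 DPI was 21.5% for VML3, 29.9% for MM3, 27.3% for DSM3 and 25.0% for DSM+MM3. At 14 DPI it was 0.829% for VML14, 0.0184% for MM14, 15.1% for DSM14 and 22.2% for DSM+MM14. Of 7 counted receptors and kinases, 4 were higher with VML3, 6 with each of MM3 and DSM3 and 5 with DSM+MM3. At 14 DPI the calls numbered 3 with DSM14, 4 with DSM+MM14 and 0 with VML14 and MM14. Jak1, the kinase shared by the interferon receptors, stayed at 0.05 to 0.08 at 3 DPI. Ifngr1, a chain of the interferon gamma receptor, was at 1.14 to 1.39 at 3 DPI. Of 4 inhibitors, 1 was higher in VML3 and 2 in each repaired group at 3 DPI, 0 in VML14 and MM14, and 2 in each scaffold group at 14 DPI. Of 13 counted sensing genes, 7 were higher in each of VML3 and DSM3 and 8 in each of MM3 and DSM+MM3. At 14 DPI the calls numbered 6 with DSM14, 7 with DSM+MM14 and 0 with VML14 and MM14. In the scaffold difference at 14 DPI, 1 of 7 receptors and kinases, 1 of 4 inhibitors and 1 of 13 sensing genes passed at an adjusted p (background 1.59%). At an unadjusted p under 0.05, 2, 1 and 8 of them were higher (background 17.8%). Tlr7, an endosomal receptor of single-stranded RNA, reached 5.53 for MM3, whereas Mavs, the mitochondrial adaptor of RIG-I and MDA5, was lower there at -1.34.

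Of 8 counted antigen presentation genes, 5 were higher in each of VML3 and DSM3 and 6 in each of MM3 and DSM+MM3. At 14 DPI the calls numbered 4 with DSM14, 3 with DSM+MM14 and 0 with VML14 and MM14. In the scaffold difference at 14 DPI, 1 of these 8 passed at an adjusted p (background 1.59%). At an unadjusted p under 0.05, 4 were higher (background 17.8%). Cxcl10, a chemokine that interferon induces and that draws T cells, had log2 fold changes of 2.88 for VML3, 4.67 for MM3, 4.59 for DSM3 and 5.16 for DSM+MM3, then 0.75 for VML14, 1.55 for MM14, 6.21 for DSM14 and 4.13 for DSM+MM14. All 4 chemokines (Cxcl9, Cxcl10, Cxcl11 and Ccl5) were called in MM3 and in DSM14, 2 in DSM3 and DSM+MM3, and 0 in VML3, VML14, MM14 and DSM+MM14. In DSM+MM14 Cxcl10 had an adjusted p of 0.0718 and Ccl5 of 0.0523. The paper reports increased Cxcl10 in this group, where its figure legend gives a p-value cutoff without stating an adjustment. In the scaffold difference at 14 DPI the chemokine median was 2.95, with 0 past an adjusted p and 3 past an unadjusted p of 0.05.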

How the data were processed

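Total RNA of rat TA muscle was sequenced on a BGISEQ platform. The authors aligned the reads to Rnor_6.0 by STAR, assigned them to RefSeq transcripts by featureCounts, and used edgeR to scale them by TMM and to test injured against uninjured muscle, with versions not given in the sources used here. The deposited log2 columns hold fold changes and average CPM on the log2 scale. The deposited score columns hold F statistics. The deposited p-value columns come from the test the authors ran in edgeR, and the deposited adjusted p equals the Benjamini-Hochberg adjustment over 18281 transcripts (largest gap 3.82e-14). The table holds 8 comparisons in 48 columns. These are the authors' own comparisons, used because single-library values were not analysed here, so no planned fit per library could be run. The table gives no read total per library, and the methods give only a mean depth.

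Header MM4 was read as DSM3, and header DSM as DSM14: nonzero fold changes were identical at 109 to 188 rows in the 12 pairs of a day and at 0 in the 16 pairs across days. The row with the highest average stood for a gene. SE was the absolute log2 fold change divided by the square root of F, with up to 26.4 degrees of freedom. For differences within a day the uninjured share of the variance, 0.429, was taken out. Such differences used a t distribution, and p was adjusted over transcripts at a log2 CPM of at least 0, for 18 comparisons within days and 4 between days. No term tied an injured library to the uninjured library of its rat. Members, gene lists and tests were chosen with earlier results of these data known. Named were all members, and other genes only from the lists. Alternatives covered thresholds, adjustment, filters, SE, variance share and motif. Promoters came from RefSeq (GRCr8). Python 3.11.15, numpy 2.4.6, pandas 2.3.3, scipy 1.17.1 and matplotlib 3.10.9 were used.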

Additional observations from a re-analysis of the deposited data

How the results depend on the processing

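At an adjusted p under 0.01, the member calls fell to 4 for VML3, 9 for DSM3, 14 for DSM+MM3, 3 for DSM14 and 6 for DSM+MM14. The share of all transcripts at that threshold was not counted, so these falls do not set the members apart from other transcripts. With p left unadjusted and under 0.05, the member calls numbered 16 for VML3 (background 29.3%) and 6 for VML14 (background 16.6%). They numbered 3 for MM14 (background 11.8%) and 23 for DSM+MM14 (background 29.7%). Fold thresholds, a minimum log2 CPM of 1, all members or all rows kept each count within 1.5 times. Adjustment over transcripts at a log2 CPM of at least 0 turned 11 further gene-by-group tests into calls. The share of all transcripts gained in this way was not counted, so this rise does not set the members apart. With a variance share from 3 and 3 libraries, 8 members passed in the scaffold difference at 14 DPI and 1 in DSM+MM14 minus VML14, where 6.34% of transcripts passed as higher. With no share taken out, 12 members in place of 25 passed an unadjusted p of 0.05 in the scaffold difference, with 8.35% of transcripts. The cause was not tested beyond the size of the error each setting gives. The longer motif was found in 63.3% of member windows and 3.92% of all, and the shorter window of the bases nearest before the start gave 66.7% and 6.48%. No paired analysis was possible because the table used lists group comparisons without per-library columns, and replicates could not be left out for the same reason. With 3 libraries a group and an SE near 1 for many members, differences of 2-fold between injured groups were not detectable for those genes.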
